A study of Homo sapiens with 16 samples.

Results

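The proteasome genes described here are the genes of the deposited counts table whose symbol starts with PSM, goes on with a letter from A to G and ends in a number, with or without IP1. PSMB8 and PSMB9 were left out, and PSMB3 was not analysed here. The rule gave 46 of the 34618 genes of the table, and it used no measured value. Of the 46, 30 encode subunits of the 26S proteasome, 3 encode alternative core subunits, 7 encode assembly chaperones, 4 encode activators, and 2 encode an inhibitor and a partner of an activator. In every comparison 44 passed the filter on low counts. PSMA8, the alpha subunit of testis, had at most 1 count in a library, and PSMB11, the beta subunit of the thymus, had 0 counts in every library, so neither was tested.

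The proteasome is the large protease that degrades proteins tagged with ubiquitin in the cytosol and nucleus. Its 20S core is a barrel of alpha and beta rings, with the active sites inside on the beta subunits PSMB5, PSMB6 and PSMB7. The 19S particle caps the core: its base holds a ring of ATPases that unfold substrates, and its lid holds the deubiquitinase that removes the ubiquitin chain. Other caps, such as the activators encoded by PSME1 to PSME4, open the core without ubiquitin. Blood cancers are a field of use of proteasome inhibitors, and cells exposed to such inhibitors are known to raise many subunit genes together through the transcription factor NFE2L1.

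Polyadenylated RNA was sequenced from 2 human acute myeloid leukaemia (AML) cell lines, U937, a promonocytic line, and KG1A, an immature CD34+ line. The 4 groups were U937 with NEL at 10 µM, U937 with the vehicle DMSO, KG1A with NEL at 10 µM and KG1A with DMSO, with 4 libraries each. NEL is taken to be nelarabine, a purine nucleoside prodrug, from knowledge of the published study, since the labels give only the abbreviation and no treatment time. The medium of all groups was RPMI with dialyzed serum, and each line is 1 established cell line. The comparisons addressed whether proteasome transcripts differed between NEL and vehicle in each line, and whether the lines responded alike.

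Library totals ran from 11157449 to 11403031 counts in U937 NEL, 11524192 to 11777684 in U937 DMSO, 10641567 to 11046699 in KG1A NEL and 10900129 to 11049006 in KG1A DMSO. A gene with 0 counts could be as high as 0.255 to 0.282 CPM (counts scaled to a common library size), depending on the library and for counting error only. The lines matched their labels by markers: CD34 stood at 827 to 1050 CPM over the KG1A libraries and at most at 1.23 CPM in U937, and the myeloid genes SPI1, CD33 and LYZ were high in U937. The erythroid genes HBB and HBA1 and the epithelial gene KRT18 were at 0 in every library, MPO stayed under 1 CPM in both lines, and CD3D stood at 104 to 128 CPM in KG1A. Separate cultures are named by no label, so the spread behind the p-values is that among these libraries and may be technical. Odd-numbered and even-numbered libraries stood apart in all groups, with no batch named in the labels, so values within each set are given beside the main results.

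CPM values are scaled by TMM factors over all 16 libraries, except those of the markers and the bound for 0 counts, which use library totals alone. Changes are log2 fold changes with their standard error (±) from edgeR's quasi-likelihood test, and a gene was called at a Benjamini-Hochberg adjusted p under 0.05 over all genes tested. All of these values are relative to the rest of each library, and in bulk RNA fewer cells and less RNA per cell cannot be told apart.

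In U937, most of the proteasome genes were lower with NEL. Of the 44 tested, 38 fell, 1 rose (PSME3IP1) and 5 were not called (PSMA6, PSMB10, PSMC1, PSME1 and PSME2). Their median log2 fold change was -0.43, with a range of -1.54 to 0.20. Among all genes tested in U937, 34.7% were called lower, 34.6% were called higher and the median was -0.0044. The genes that fell were all 8 lid subunits, all 6 beta ring subunits, all 7 assembly chaperones, 6 of 7 alpha subunits, 5 of 6 ATPases, the 3 other base genes, 2 of 4 activators and the inhibitor, while PSMB10, the alternative core subunit tested, was not called. The deepest falls were those of PSMD1, a scaffold of the 19S base, PSME3, a nuclear activator, and the lid subunits PSMD12 and PSMD11.

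In KG1A, the same genes split. Of the 44 tested, 6 rose (PSMC3, PSMG3, PSMG1, PSME2, PSME3IP1 and PSME3), 9 fell (PSMB10, PSMC1, PSMB6, PSMD10, PSMB7, PSMA2, PSME1, PSMD6 and PSME4) and 29 were not called. Their median log2 fold change was -0.01, with the lowest at -0.43. Among all genes tested in KG1A, 23.6% were called higher, 23.6% were called lower and the median was -0.0045. The members' shares in KG1A thus lay near or below those of all genes, while the share that fell in U937 lay well above it. In the test on deposited RPKM values, 64.5% of all calls in KG1A were higher, against 50% in the count test, and the members' median was then 0.055 or 0.061, depending on the pseudocount.

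The sets of libraries gave similar counts in U937 and less even ones in KG1A. In U937, 37 fell and 1 rose within the odd-numbered set, and likewise within the even-numbered set. Over all genes, 33.2% fell and 32.8% rose in the odd-numbered U937 libraries, and 32.9% and 32.7% in the even-numbered ones. In KG1A, 9 fell and 7 rose in the odd-numbered libraries (22.2% and 22.3% of all genes), and 7 fell and 6 rose in the even-numbered ones (22.3% and 22.9%). With the library number as a block in the fit, 11 fell and 9 rose in KG1A, against 29.7% and 28.8% of all genes in that fit, shares that grew for all genes too. The U937 counts were then 38 and 1, against 38.0% and 37.6% of all genes. In the main test, the 15 tested members with no overlapping gene and no pseudogene symbol gave 14 lower and 1 higher in U937. Over all genes these shares were 34.7% and 34.6%. In KG1A they gave 1 lower and 3 higher, beside 23.6% of all genes each way, so their shares there lay below those of all genes. The other tested members are less certain as single genes. Of the members, 16 have a pseudogene symbol in the reference list of gene names, which is not the counts table. In the counts table, 8 overlap a gene on the same strand and 16 overlap one on the opposite strand. Whether counting used the strand is not given in the sources used here.

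**Figure D1:**
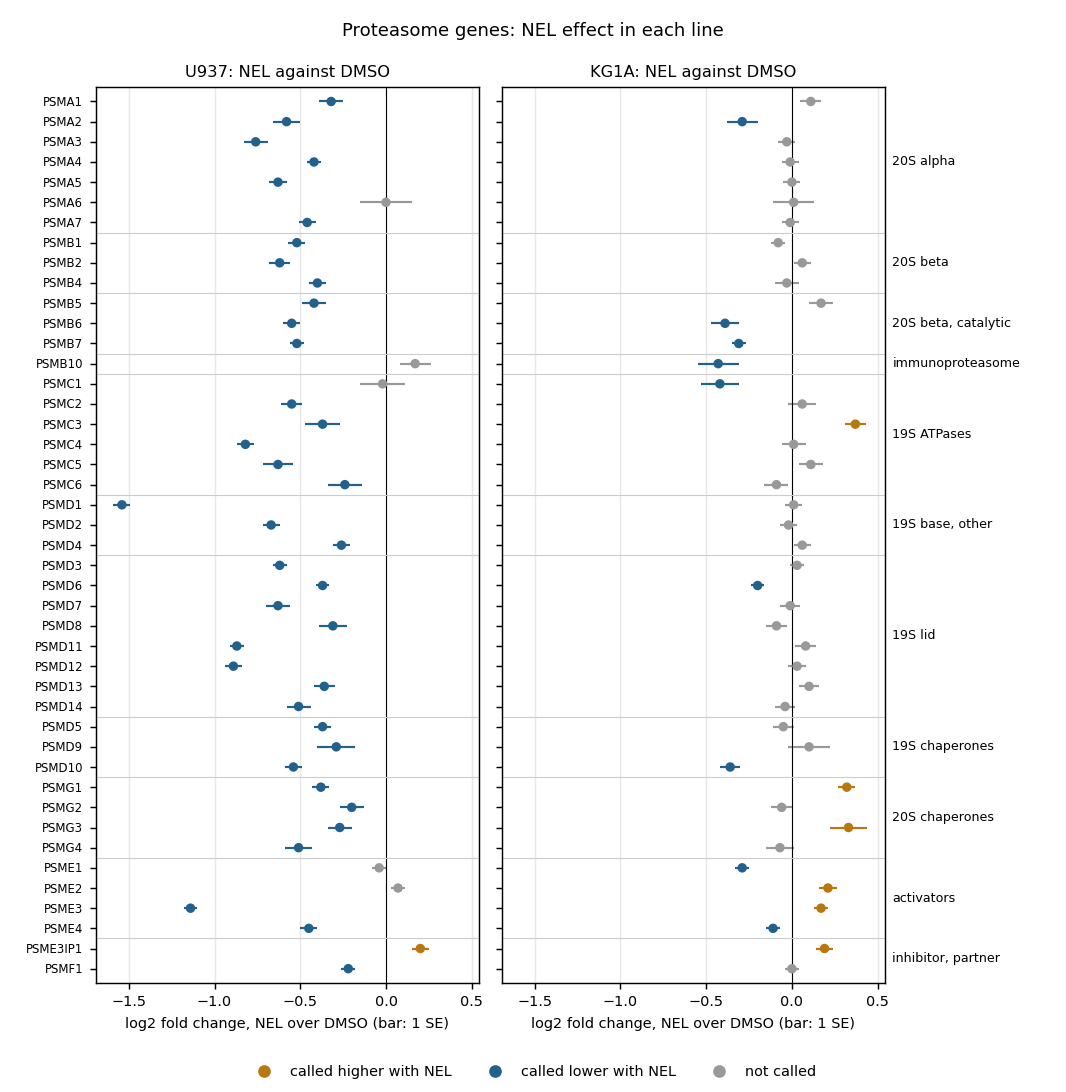
Log2 fold change of NEL over DMSO for the 44 tested proteasome genes in U937 (left) and KG1A (right), ordered by role; points are edgeR estimates, bars are 1 standard error, and colour gives the call. Nearly all points in U937 lie left of 0, down to -1.54 for PSMD1, while those in KG1A scatter around 0 between -0.43 and 0.37.

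Levels of different genes were compared by RPKM, the deposited counts per exon length, on which the 30 measured subunits of the 26S proteasome were far from equal. In U937 DMSO they ran from 109 ± 9.16 RPKM for PSMB2 and 105 ± 7.26 for PSMB4, both structural beta subunits, to 1.47 ± 0.196 for the ATPase gene PSMC1 and 0.782 ± 0.140 for the alpha subunit gene PSMA6 (mean ± SD, n = 4). PSMC1 and PSMA6 stood lowest in all 4 groups, and they have the most pseudogene symbols of the 26S subunits, 13 and 4. The exon length is the union of all annotated exons, so a gene with long minor exons has an understated level, and the part of either feature in these low levels was not tested. The highest in U937 NEL were PSMB4 at 85.1 ± 4.40, PSMA7 at 76.0 ± 3.86 and PSMB2 at 75.4 ± 3.40 RPKM, and PSMA7 and PSMB2 did not differ beyond their spread. In KG1A NEL the ATPase gene PSMC3 stood first at 58.5 ± 6.28 RPKM, ahead of PSMD8 at 51.5 ± 3.71 and PSMA7 at 50.8 ± 3.64, neighbours whose values overlap within 1 SD, and in KG1A DMSO PSMD8 stood first at 52.4 ± 3.84.

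Summed over the 30 subunits, RPKM was 885, 953, 895 and 938 in the libraries of U937 NEL, against 1226, 1298, 1194 and 1297 in U937 DMSO. It was 707, 765, 738 and 792 in KG1A NEL, against 684, 731, 715 and 739 in KG1A DMSO. The U937 groups were far apart, and the U937 NEL libraries still lay above all KG1A libraries. The KG1A groups overlapped, although the sum was higher with NEL in 4 of 4 same-numbered pairs. Whether libraries pair by number is not known, and RPKM over all genes in KG1A ran higher with NEL. The median of all genes tested was 0.0528 in the test on log2(RPKM + 0.5), against -0.0045 in the count test. In the count test, 1 of the 30 subunits rose in KG1A and 5 fell, and the median of the 30 was -0.00.

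**Figure D2:**
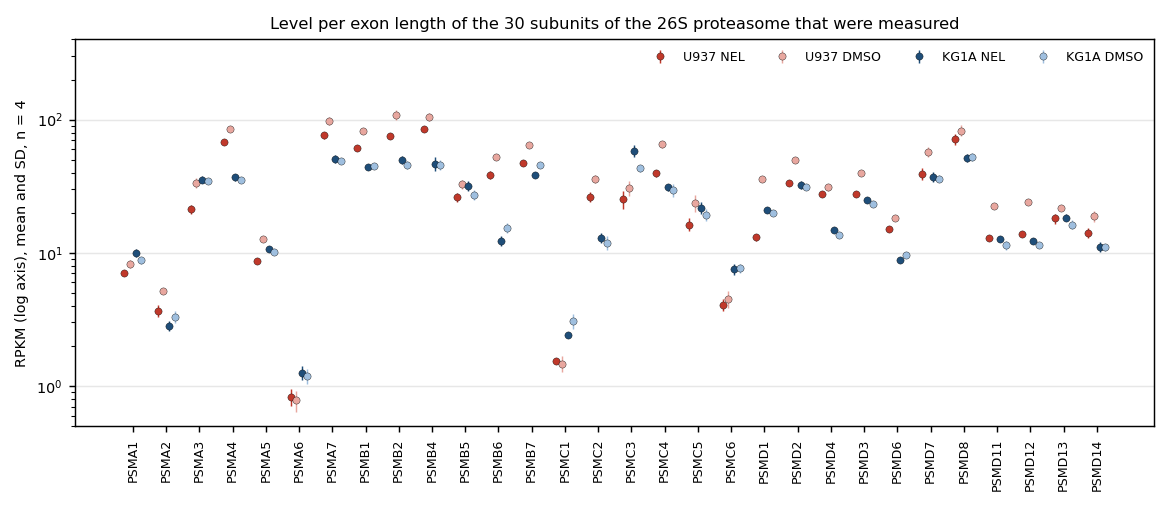
RPKM on a log axis of the 30 measured 26S subunit genes, with mean (points) and SD (bars) of 4 libraries in U937 NEL, U937 DMSO, KG1A NEL and KG1A DMSO. PSMB2 reaches 109 RPKM in U937 DMSO, and PSMA6 and PSMC1 lie lowest in all groups.

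The alpha ring gates the core and binds its caps. In U937, 6 of its 7 genes fell with NEL, from PSMA3 at -0.76 ± 0.07 and PSMA5 at -0.63 ± 0.05 to PSMA1 at -0.32 ± 0.07, and PSMA6 stood at -0.00 ± 0.15 (log2). In KG1A, PSMA2 alone among them was called, at -0.29 ± 0.09, and its groups overlapped there. Its change was -0.19 and -0.22 in the tests on RPKM, where the call was lost (limma adjusted p = 0.0851 and 0.0867, and 6.75e-04 to 0.0867 over all alternatives). The summed RPKM of the alpha ring was 185 ± 3.86 in U937 NEL and 244 ± 8.32 in U937 DMSO, and 148 ± 6.07 in KG1A NEL and 142 ± 4.49 in KG1A DMSO (mean ± SD, n = 4 each). PSMA2 and PSMA6 have pseudogene symbols and low RPKM, so their values carry the least weight in this ring.

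The active sites of the core sit on PSMB5, which cuts after hydrophobic residues and is the main target of proteasome inhibitors, on PSMB6, which cuts after acidic ones, and on PSMB7, which cuts after basic ones. In U937 all of them fell with NEL. PSMB5 had 43.0, 49.0, 41.8 and 45.3 CPM in the U937 NEL libraries, against 59.7, 63.7, 53.6 and 62.9 in U937 DMSO. PSMB6 had 48.9, 54.0, 52.4 and 56.4 CPM in U937 NEL, against 72.4, 80.4, 79.1 and 78.8 in U937 DMSO. PSMB7 had 94.6, 104, 96.9 and 102 CPM in U937 NEL, against 140.0, 146, 139 and 147 in U937 DMSO. None of these groups overlapped, and the log2 fold changes were of like size, -0.42 ± 0.07 for PSMB5 (edgeR adjusted p = 6.63e-05), -0.55 ± 0.05 for PSMB6 (edgeR adjusted p = 6.67e-07) and -0.52 ± 0.04 for PSMB7 (edgeR adjusted p = 1.29e-07). The structural beta subunits PSMB1, PSMB2 and PSMB4 fell too, by 0.52 ± 0.05, 0.62 ± 0.06 and 0.40 ± 0.05 on the log2 scale.

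In KG1A the catalytic genes went apart. PSMB6 had 15.5, 16.3, 18.5 and 17.8 CPM in the KG1A NEL libraries, against 22.7, 20, 24.4 and 22.0 in KG1A DMSO, and fell by 0.39 ± 0.08 on the log2 scale (edgeR adjusted p = 0.00114). PSMB7 had 77.7, 79.4, 82.2 and 83.1 CPM in KG1A NEL, against 96.6, 101, 102 and 99.3 in KG1A DMSO, and fell by 0.31 ± 0.04 (edgeR adjusted p = 1.95e-05). The groups of both genes were separate in KG1A. PSMB5, at 49.4, 54.3, 55.6 and 60.6 CPM in KG1A NEL and 45.0, 51.7, 45.9 and 52.3 in KG1A DMSO, had overlapping groups and a log2 fold change of 0.17 ± 0.07 (edgeR adjusted p = 0.0599). With the library number as a block, the change of PSMB5 was 0.17 with an edgeR adjusted p of 8.42e-04, and it was also called without KG1A DMSO library 2, KG1A DMSO library 4 or KG1A NEL library 1 (edgeR adjusted p = 0.0480, 0.0389 and 0.0164; 8.42e-04 to 0.179 over all alternatives).

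PSMB10 encodes the immunoproteasome subunit that takes the place of PSMB7 in newly made cores. Its response differed between the lines. It had 10.8, 9.71, 9.93 and 10.5 CPM in the U937 NEL libraries, against 8.86, 8.15, 9.83 and 9.66 in U937 DMSO, with a log2 fold change of 0.17 ± 0.09 (edgeR adjusted p = 0.122). It had 4.60, 5.29, 4.79 and 4.33 CPM in KG1A NEL, against 6.72, 6.49, 6.32 and 6.03 in KG1A DMSO, and fell by 0.43 ± 0.12 (edgeR adjusted p = 0.00732). The U937 groups overlapped and the KG1A groups did not. With upper quartile factors its change in U937 was 0.23 (edgeR adjusted p = 0.0446, and 0.00822 to 0.366 over all alternatives). In the even-numbered KG1A libraries alone it was -0.38 (edgeR adjusted p = 0.113, and 0.00396 to 0.113 over all alternatives). Its RPKM as a percent of that of PSMB7 was 13.3, 10.8, 11.9 and 12.1% in the U937 NEL libraries, against 7.35, 6.49, 8.2 and 7.65% in U937 DMSO. It was 6.88, 7.74, 6.76 and 6.05% in KG1A NEL, against 8.08, 7.46, 7.23 and 7.06% in KG1A DMSO. All U937 NEL libraries lay above all U937 DMSO libraries on this ratio, and the KG1A groups overlapped. PSMB7 itself fell in U937 by 0.52 ± 0.04 on the log2 scale and PSMB10 was not called. The higher ratio in U937 NEL thus does not show a rise of PSMB10. PSMB10 shares a stretch of its strand with an unnamed gene (ENSG00000261884), so its counts are less certain.

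The ATPases PSMC1 to PSMC6 form the ring that unfolds substrates. In U937, 5 of the 6 fell with NEL, deepest PSMC4 at -0.82 ± 0.05 and PSMC5 at -0.63 ± 0.09 (log2). PSMC4 had 85.5, 97.0, 90.9 and 93.5 CPM in U937 NEL, against 165, 160.2, 149 and 172 in U937 DMSO, and 69.2, 77.3, 69.5 and 74.0 CPM in KG1A NEL, against 62.4, 74.4, 80.6 and 69.6 in KG1A DMSO. Its groups were far apart in U937 and overlapped in KG1A, where the log2 fold change was 0.01 ± 0.07 (edgeR adjusted p = 0.937). PSMC6 had 27.5, 32.4, 26.6 and 32.2 CPM in U937 NEL, against 29.4, 37.4, 32.3 and 40.9 in U937 DMSO, groups that overlapped, and its call at -0.24 ± 0.10 (edgeR adjusted p = 0.0494) was lost without U937 NEL library 1 or 3 or U937 DMSO library 2 or 4 (edgeR adjusted p = 0.115 to 0.158, and 1.76e-04 to 0.307 over all alternatives).

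PSMC3 and PSMC1 departed from the rest of the ATPase ring. PSMC3 had 48.0, 62.6, 48.2 and 61.8 CPM in U937 NEL, against 67.9, 77.5, 60.6 and 80.5 in U937 DMSO, and fell by 0.37 ± 0.10 on the log2 scale (edgeR adjusted p = 0.00513), with groups that overlapped across the odd and even libraries but not within them. In the tests on RPKM the change was -0.28 and -0.29 and was not called (limma adjusted p = 0.0584 and 0.0583, and 6.44e-12 to 0.0584 over all alternatives). PSMC3 had 118, 139, 116 and 139 CPM in KG1A NEL, against 93.4, 106, 94.9 and 102 in KG1A DMSO, and there it rose, by 0.37 ± 0.06 (edgeR adjusted p = 2.96e-04), the largest rise among the 44 genes in KG1A. PSMC1 had 5.02, 4.94, 4.96 and 5.18 CPM in U937 NEL, against 4.38, 5.41, 4.74 and 5.94 in U937 DMSO, groups that overlapped (-0.02 ± 0.13, edgeR adjusted p = 0.888). In KG1A, PSMC1 had 7.67, 7.85, 7.91 and 8.12 CPM with NEL, against 9.27, 9.92, 10.8 and 12.2 with DMSO, and fell by 0.42 ± 0.11 (edgeR adjusted p = 0.00413). Reads of PSMC1 can be shared with its 13 pseudogene copies.

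The base also holds the scaffolds PSMD1 and PSMD2 and the ubiquitin receptor PSMD4, and PSMD1 gave the largest change of any proteasome gene. PSMD1 (chromosome 2, 231921578 to 232037541 on GRCh37) had 65.7, 71.5, 63.1 and 63.4 CPM in the U937 NEL libraries, against 183, 196, 183 and 206 in U937 DMSO. It fell by 1.54 ± 0.05 on the log2 scale, a 2.91-fold decrease (edgeR adjusted p = 3.06e-11), with -1.51 over odd-numbered and -1.57 over even-numbered libraries. In KG1A, PSMD1 had 98.7, 109, 106 and 111 CPM with NEL, against 99.6, 107, 108 and 106 with DMSO, groups that overlapped (0.01 ± 0.05, edgeR adjusted p = 0.932). HTR2B lies inside PSMD1 on the opposite strand. Relative to PSMD2, the other scaffold, PSMD1 stood at 41.7, 41.0, 38.0 and 36.2% of its RPKM in U937 NEL, against 70.7, 71.5, 70.9 and 73.6% in U937 DMSO, and at 64.9 ± 3.54% in KG1A NEL and 63.7 ± 1.82% in KG1A DMSO (mean ± SD, n = 4 each). PSMD1 thus lay lower against its partner in every U937 NEL library than in any other library.

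PSMD2 itself fell in U937 by 0.67 ± 0.05 on the log2 scale. PSMD4 had 80.9, 79, 79.6 and 84.4 CPM in U937 NEL, against 92.2, 101, 92 and 104 in U937 DMSO, and fell by 0.26 ± 0.05 (edgeR adjusted p = 3.83e-04), among the smaller changes of the base. In KG1A, PSMD4 had 43.5, 45.3, 43.3 and 43.6 CPM with NEL, against 40.7, 43.7, 41.9 and 41.9 with DMSO, with a change of 0.06 ± 0.05 (edgeR adjusted p = 0.363) and overlapping groups.

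**Figure D3:**
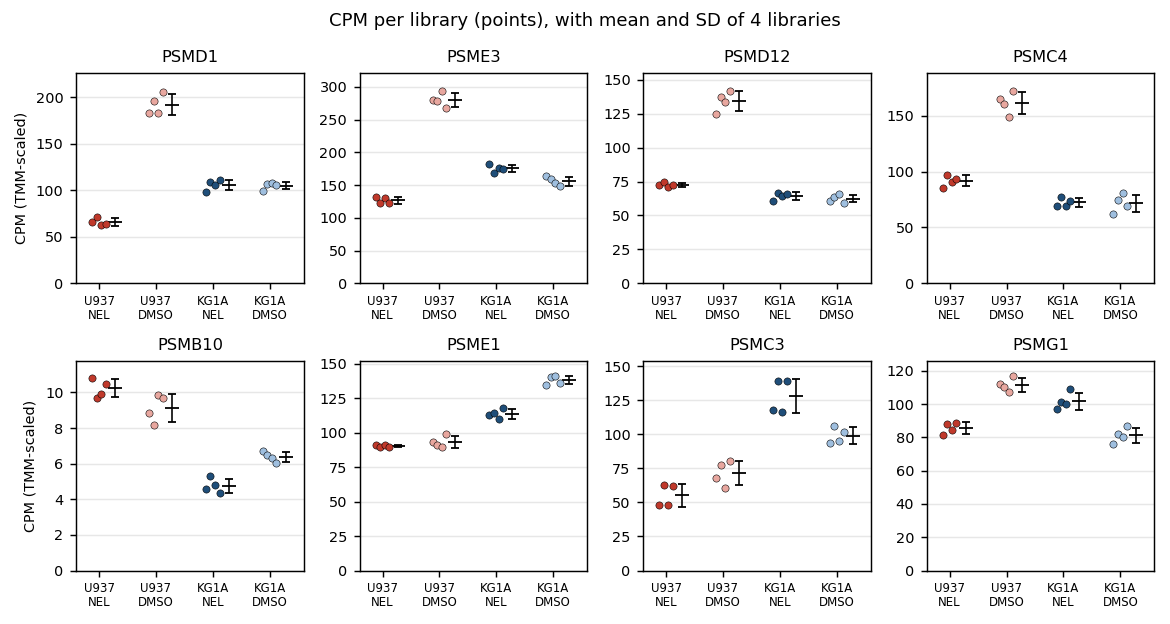
CPM of 8 proteasome genes in each library (points), with mean and SD of 4 libraries (bars), for U937 NEL, U937 DMSO, KG1A NEL and KG1A DMSO; each panel has its own axis from 0. PSMD1, PSME3, PSMD12 and PSMC4 are separate between the U937 groups, PSMB10 and PSME1 are lower with NEL in KG1A, and PSMC3 and PSMG1 move in opposite directions in the lines.

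The lid removes ubiquitin from substrates, and all 8 of its measured genes fell with NEL in U937, from -0.89 for PSMD12 and -0.87 for PSMD11 to -0.31 for PSMD8 (log2). PSMD12, a structural lid subunit (chromosome 17, 65334032 to 65362743 on GRCh37), had 72.1, 74.8, 70.8 and 72.5 CPM in U937 NEL, against 125, 137, 134 and 142 in U937 DMSO (edgeR adjusted p = 1.50e-09). PSMD11, a lid subunit that also contacts the core, had 91.4, 87.0, 95.0 and 89.8 CPM in U937 NEL, against 167, 165, 174 and 159 in U937 DMSO (edgeR adjusted p = 8.03e-10). PSMD14, the deubiquitinase, had 95.7, 116, 102 and 108 CPM in U937 NEL, against 137, 163, 139.9 and 163 in U937 DMSO, and fell by 0.51 ± 0.07 (edgeR adjusted p = 1.85e-05). The groups of these 3 genes did not overlap in U937. In KG1A they did: PSMD12 had 60.3, 66.6, 64.1 and 65.8 CPM with NEL, against 61.0, 63.4, 66.1 and 59.5 with DMSO, PSMD11 had 88.4, 86.4, 95.2 and 85.7 with NEL, against 93.6, 81.0, 84.2 and 77.3 with DMSO, and PSMD14 had 76.6, 91.2, 79.7 and 87.6 with NEL, against 81.2, 91.9, 83.1 and 87.8 with DMSO. Their changes in KG1A lay between -0.04 and 0.08. PSMD6 was the lid gene called in KG1A, where it fell by 0.20 ± 0.04 (edgeR adjusted p = 0.00128).

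**Figure D4:**
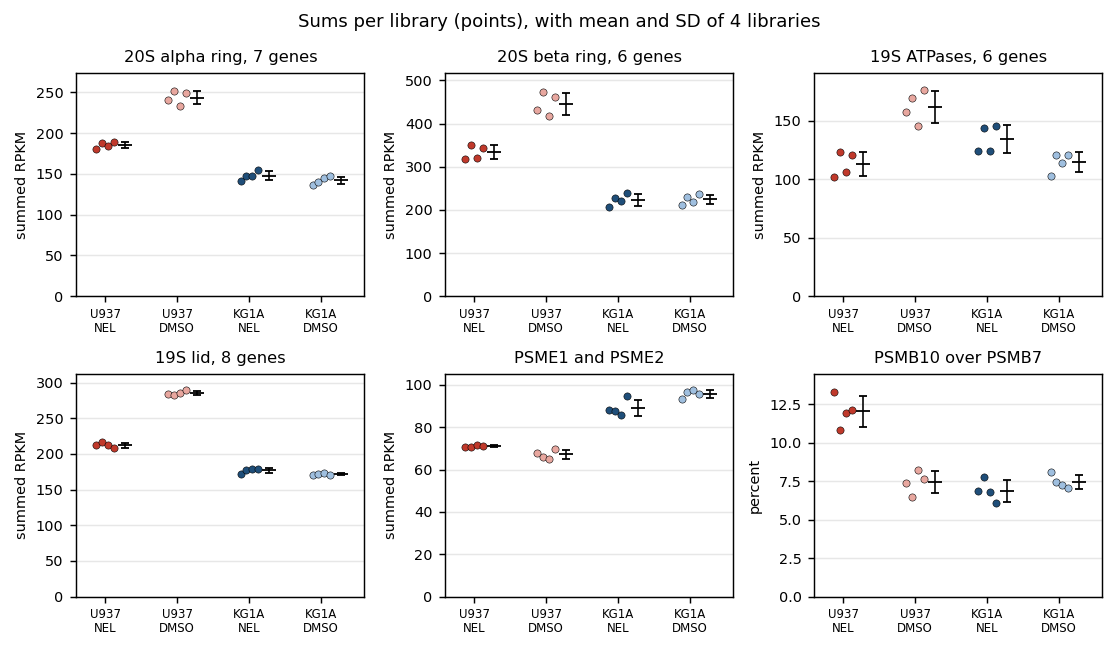
Summed RPKM of the alpha ring, the 6 measured beta ring genes, the ATPases, the lid and the PSME1 and PSME2 pair, and RPKM of PSMB10 as a percent of PSMB7, per library (points) with mean and SD of 4 libraries (bars). The 4 particle sums are lower in U937 NEL than in U937 DMSO in every library. In KG1A the groups overlap for the alpha ring, the beta ring and the lid. The ATPase sum in KG1A is higher with NEL, at 134 ± 12.2 RPKM against 115 ± 8.16 with DMSO, with separate groups.

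Assembly chaperones hold the subunits until the particles are complete. The 20S chaperones work as pairs, PSMG1 with PSMG2 and PSMG3 with PSMG4, and all 4 genes fell with NEL in U937. PSMG1 had 81.4, 88.0, 84.4 and 88.8 CPM in U937 NEL, against 112, 110.2, 107 and 117 in U937 DMSO, and PSMG4 had 12.7, 12.2, 13.2 and 12.2 CPM in U937 NEL, against 19, 16.9, 18.9 and 17.1 in U937 DMSO. Their groups were separate, with log2 fold changes of -0.38 ± 0.05 (edgeR adjusted p = 4.55e-06) and -0.51 ± 0.08 (edgeR adjusted p = 4.25e-05). PSMG2 had 41.4, 41.5, 42.9 and 35.2 CPM in U937 NEL, against 49.8, 43.1, 48.2 and 44.3 in U937 DMSO, and its call at -0.20 ± 0.07 was lost without U937 NEL library 4 or U937 DMSO library 1 (edgeR adjusted p = 0.0686 and 0.0577, and 3.64e-04 to 0.191 over all alternatives). PSMG3 had 37.9, 41.1, 40.0 and 40.6 CPM in U937 NEL, against 46.3, 47.9, 42.4 and 55.9 in U937 DMSO (-0.27 ± 0.07, edgeR adjusted p = 0.00569), separate groups, and it was not called in the tests on RPKM (limma adjusted p = 0.0754 and 0.0752, and 6.13e-06 to 0.0754 over all alternatives).

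In KG1A the chaperone pairs were split, since PSMG1 and PSMG3 rose and their partners were not called. PSMG1 had 96.8, 101, 100.3 and 109 CPM in KG1A NEL, against 75.9, 82.2, 80.0 and 86.6 in KG1A DMSO, and rose by 0.32 ± 0.05 (edgeR adjusted p = 1.20e-04), with separate groups. PSMG3 had 19.1, 23.9, 20.5 and 27.4 CPM in KG1A NEL, against 19, 19.5, 17.7 and 16.1 in KG1A DMSO, and rose by 0.33 ± 0.11 (edgeR adjusted p = 0.0198). The groups of PSMG3 overlapped slightly. Its rise was 0.53 in the even-numbered libraries and 0.11 in the odd-numbered ones (edgeR adjusted p = 1.54e-06 and 0.436), and the call was lost without KG1A NEL library 2, KG1A NEL library 4 or KG1A DMSO library 4 (edgeR adjusted p = 0.0540, 0.0706 and 0.0647, and 1.54e-06 to 0.436 over all alternatives). PSMG2 had 58.2, 51.4, 57.2 and 54.7 CPM in KG1A NEL, against 61.2, 52.1, 60.3 and 56.9 in KG1A DMSO, and PSMG4 had 21.1, 21.0, 23.4 and 22.7 in KG1A NEL, against 21.9, 20.3, 26.6 and 23.3 in KG1A DMSO, all overlapping.

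The chaperones of the 19S base, PSMD5, PSMD9 and PSMD10 (gankyrin), also fell in U937, by 0.37 ± 0.05, 0.29 ± 0.11 and 0.54 ± 0.05 on the log2 scale. PSMD9, at 5.84 to 8.86 CPM over the U937 libraries, lost its call without U937 NEL library 1 or 3 or U937 DMSO library 2 (edgeR adjusted p = 0.0549 to 0.0821) and in either set of libraries alone (adjusted p = 0.0181 to 0.163 over all alternatives). In KG1A, PSMD10 fell by 0.36 ± 0.06 (edgeR adjusted p = 2.17e-04), and PSMD5 and PSMD9 were not called.

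The activators differed from each other, and in U937 PSME3 and PSME4 fell with NEL, as most core genes did. PSME1 and PSME2 together form the interferon-inducible cap PA28 alpha-beta, and neither was called in U937. PSME1 had 90.9, 89.7, 91.0 and 89.7 CPM in U937 NEL, against 93.2, 90.8, 89.7 and 99.2 in U937 DMSO (-0.04 ± 0.04, edgeR adjusted p = 0.401). PSME2 had 64.9, 65.1, 65.8 and 65.1 CPM in U937 NEL, against 63.1, 61.1, 62.6 and 61.5 in U937 DMSO (0.07 ± 0.04, edgeR adjusted p = 0.124). Every PSME2 value with NEL lay above every one with DMSO, by a small margin, and with upper quartile factors its change was 0.13 (edgeR adjusted p = 0.0119, and 0.00147 to 0.427 over all alternatives).

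In KG1A the subunits of this cap moved in opposite directions. PSME1 had 113, 114, 109.7 and 118 CPM in KG1A NEL, against 135, 140.5, 141 and 136 in KG1A DMSO, and fell by 0.29 ± 0.04 (edgeR adjusted p = 2.16e-05). PSME2 had 83.9, 75.8, 80.6 and 91.1 CPM in KG1A NEL, against 72.2, 70.7, 71.5 and 71.5 in KG1A DMSO, and rose by 0.21 ± 0.05 (edgeR adjusted p = 0.00478). Neither pair of groups overlapped. PSME2 has 6 pseudogene symbols, and EMC9 and RNF31 lie against PSME1 and PSME2 on the opposite strand. The summed RPKM of the pair was 70.9 ± 0.424 in U937 NEL and 67.2 ± 2.14 in U937 DMSO, and 89.0 ± 3.87 in KG1A NEL and 95.8 ± 1.92 in KG1A DMSO (mean ± SD, n = 4 each).

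PSME3 encodes PA28 gamma, the nuclear activator, and was the member with the largest contrast between the lines after PSMD1. PSME3 (chromosome 17, 40976402 to 40995774 on GRCh37) had 132, 122, 130.4 and 122 CPM in U937 NEL, against 280.3, 278, 294 and 267 in U937 DMSO. It fell by 1.14 ± 0.04 on the log2 scale, a 2.21-fold decrease (edgeR adjusted p = 7.17e-11), with -1.13 over odd-numbered and -1.15 over even-numbered libraries. In KG1A, PSME3 had 182, 169, 176 and 175 CPM with NEL, against 164, 159, 153 and 148 with DMSO, and rose by 0.17 ± 0.04 (edgeR adjusted p = 0.00403). The groups were separate in both lines, and BECN1 overlaps PSME3 on the opposite strand. In RPKM, PSME3 stood at 50.9 ± 1.74% of PSME1 in U937 NEL and 109 ± 8.70% in U937 DMSO, and at 56.2 ± 2.62% in KG1A NEL and 41.0 ± 2.16% in KG1A DMSO (mean ± SD, n = 4 each). PSME3IP1, which binds PA28 gamma, rose in both lines. It had 89.8, 83.7, 88.1 and 82.1 CPM in U937 NEL, against 75.7, 71.6, 79.4 and 73.8 in U937 DMSO (0.20 ± 0.05, edgeR adjusted p = 0.00218). In KG1A it had 82.5, 73.6, 78.2 and 75.8 CPM with NEL, against 72.1, 62.2, 70.6 and 65.0 with DMSO (0.19 ± 0.05, edgeR adjusted p = 0.00931). The groups did not overlap in either line.

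PSME4 encodes PA200, a nuclear cap with a part in histone turnover. It had 134, 120.3, 139 and 128 CPM in U937 NEL, against 186, 171, 187 and 171 in U937 DMSO, separate groups, and fell by 0.45 ± 0.05 (edgeR adjusted p = 3.18e-06). In KG1A it had 131, 129, 135 and 137 CPM with NEL, against 149, 137, 146 and 140.0 with DMSO, a fall of 0.11 ± 0.04 (edgeR adjusted p = 0.0282). The call in KG1A was lost without KG1A NEL library 1 or 2 or KG1A DMSO library 1 or 3 (edgeR adjusted p = 0.0673 to 0.0905, and 5.65e-04 to 0.405 over all alternatives). PSMF1, the inhibitor PI31, had 199.6, 194, 193 and 199 CPM in U937 NEL, against 221, 237, 234 and 224 in U937 DMSO, and fell by 0.22 ± 0.04 (edgeR adjusted p = 1.85e-04). In KG1A, PSMF1 had 139, 138, 135 and 139 CPM with NEL, against 138, 139.9, 129.9 and 141 with DMSO, a change near 0 (-0.00 ± 0.04, edgeR adjusted p = 0.978) with overlapping groups.

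Whether the NEL effect itself differed between U937 and KG1A was tested as the interaction term over all 16 libraries. For 34 of the 44 proteasome genes the effect was lower in U937, for 3 it was higher (PSMB10, PSMC1 and PSME1), and for 7 the difference was not called (PSMA6, PSMB6, PSMC6, PSMD8, PSME2, PSME3IP1 and PSMG2). The median difference was -0.45 on the log2 scale. Among all genes tested, 26.3% were called lower, 21.1% were called higher and the median was -0.0336. Of the calls over all genes, 44.5% were higher, against 54.6% in the DESeq2 test, in which 29 proteasome genes were lower and 3 higher, and 20.7% and 24.9% of all genes.

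The largest differences were those of PSMD1 at -1.56 ± 0.07 (edgeR adjusted p = 2.48e-13), PSME3 at -1.32 ± 0.06 (edgeR adjusted p = 2.16e-13) and PSMD11 at -0.95 ± 0.07 (edgeR adjusted p = 7.23e-10). On the other side stood PSMB10 at 0.59 ± 0.14 (edgeR adjusted p = 0.00133) and PSME1 at 0.24 ± 0.05 (edgeR adjusted p = 0.00111), which fell in KG1A. PSMB10 was at 0.62 over odd-numbered and 0.57 over even-numbered libraries (edgeR adjusted p = 0.0295 and 0.0539, and 6.40e-05 to 0.0539 over all alternatives). PSMC1, at 0.39 ± 0.16 (edgeR adjusted p = 0.0469), kept its call in 3 of 16 fits that left out a library each (KG1A DMSO 1, KG1A DMSO 2 and U937 DMSO 4), and with the library number as a block its edgeR adjusted p was 0.0512 (0.0128 to 0.350 over all alternatives). With that block PSMD8 and PSME2 were called lower in U937, at -0.23 and -0.14 (edgeR adjusted p = 3.39e-07 and 0.0300), with 3.39e-07 to 0.344 over all alternatives for PSMD8 and 0.0174 to 0.610 over all alternatives for PSME2. PSMA2, PSMD9 and PSMD10, with differences of -0.29, -0.40 and -0.20, lost their calls in 11, 6 and 6 of the 16 such fits. With DESeq2 size factors the differences of PSMB7, PSMD6 and PSMD10 were -0.13, -0.09 and -0.11 and were not called (edgeR adjusted p = 0.0614, 0.227 and 0.241), with 5.61e-05 to 0.0766 over all alternatives for PSMB7, 0.00108 to 0.277 over all alternatives for PSMD6 and 0.0227 to 0.355 over all alternatives for PSMD10. PSMA2 and PSMD9 were not called with these factors either, at -0.21 and -0.31 (edgeR adjusted p = 0.152 and 0.0969). Over all alternatives the adjusted p was 0.0116 to 0.260 for PSMA2 and 0.0202 to 0.266 for PSMD9.

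The calls in the lines can be set side by side. PSMC3, PSME3, PSMG1 and PSMG3 rose in KG1A and fell in U937, and the interaction was called for each of them. That of PSMG3 was -0.60, with -0.87 over even-numbered and -0.30 over odd-numbered libraries, where it was not called (edgeR adjusted p = 0.0505, and 1.86e-11 to 0.0505 over all alternatives). PSMA2, PSMB6, PSMB7, PSMD6, PSMD10 and PSME4 fell in both lines. PSME3IP1 rose in both, and no member fell in KG1A and rose in U937. Over the 44 genes the log2 fold changes in the lines had a Pearson r of -0.11 and a Spearman rho of -0.05, given as a description, since genes of each contrast share libraries and scaling.

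Without NEL, the proteasome genes were mostly higher in U937 than in KG1A. Of the 44 tested, 31 were higher, 9 lower and 4 not called over the DMSO libraries, with a median log2 difference of 0.51. Among all genes 43.0% were called higher and 43.4% lower, and the median was -0.0011. PSMB6 led, with 72.4, 80.4, 79.1 and 78.8 CPM in U937 DMSO, against 22.7, 20, 24.4 and 22.0 in KG1A DMSO (1.72 ± 0.06, edgeR adjusted p = 1.12e-13). PSMC2, an ATPase, had 123, 139, 126 and 142 CPM in U937 DMSO, against 37.5, 44.4, 41.0 and 48.8 in KG1A DMSO (1.54 ± 0.07, edgeR adjusted p = 2.12e-12). At the other end stood the ATPase genes PSMC1 at -1.12 ± 0.13 (edgeR adjusted p = 3.60e-07) and PSMC6 at -0.83 ± 0.09 (edgeR adjusted p = 1.02e-07). PSMC6 had 29.4, 37.4, 32.3 and 40.9 CPM in U937 DMSO, against 53.5, 62.7, 56.7 and 61.6 in KG1A DMSO.

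The classes differed in this baseline contrast. All 8 lid genes, all 6 measured beta ring genes and the 3 non-ATPase base genes were higher in U937, while the ATPases split into 3 higher and 3 lower and the 20S chaperones into 2 and 2. PSME1 was lower in U937 by 0.65 ± 0.04 on the log2 scale, and PSME2 by 0.29 ± 0.04. The 26S subunits summed to 1254 ± 52.2 RPKM in U937 DMSO and 717 ± 24.5 in KG1A DMSO, and with NEL to 918 ± 32.9 in U937 and 751 ± 36.4 in KG1A (mean ± SD, n = 4 each). The calls of PSMA1 and PSMC5 in this contrast were lost without some DMSO libraries (KG1A 3 or 4 or U937 1 or 3 for PSMA1, KG1A 3 or U937 2 for PSMC5, edgeR adjusted p = 0.0514 to 0.141), and with the library number as a block PSMA3 was called lower in U937, at -0.10 (edgeR adjusted p = 0.00903, and 0.00554 to 0.571 over all alternatives).

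Proteasome genes named outside the PSM scheme were counted as a list. In U937, 11 of the 12 fell with NEL and 1 rose, with a median of -0.42, beside 34.7% and 34.6% of all genes. ADRM1, a ubiquitin receptor of the base, had 88.3, 78.3, 82.4 and 80.8 CPM in U937 NEL, against 161, 148, 156 and 144 in U937 DMSO (-0.88 ± 0.05, edgeR adjusted p = 2.69e-09). SEM1, a small lid subunit, had 57.0, 66.2, 47.7 and 60.1 CPM in U937 NEL, against 74.7, 92.1, 81.1 and 94.3 in U937 DMSO, and POMP, the chaperone of core maturation, had 62.4, 61.9, 62.7 and 63.6 in U937 NEL, against 78.1, 83.5, 75.2 and 78.8 in U937 DMSO. Both fell, at -0.56 ± 0.09 (edgeR adjusted p = 8.95e-05) and -0.33 ± 0.05 (edgeR adjusted p = 1.88e-05), with separate groups. The deubiquitinases of the 19S particle fell as well, USP14 at -0.31 ± 0.04 (edgeR adjusted p = 8.43e-06) and UCHL5 at -0.54 ± 0.06 (edgeR adjusted p = 3.21e-06). PAAF1, which binds free 19S ATPases, rose in U937 by 0.62 ± 0.08 (edgeR adjusted p = 1.47e-05) and in KG1A by 0.33 ± 0.05 (edgeR adjusted p = 9.71e-05).

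In KG1A, 3 genes of this list rose and 6 fell, beside 23.6% of all genes each way. PITHD1 rose by 0.45 ± 0.05 (edgeR adjusted p = 5.35e-06), and ECPAS, a proteasome adaptor, fell by 0.36 ± 0.04 (edgeR adjusted p = 1.08e-05). In U937 both fell. PITHD1 had 45.7 ± 2.21 CPM in U937 NEL and 62.6 ± 3.38 in U937 DMSO, and ECPAS had 111 ± 2.30 and 142 ± 2.40 (mean ± SD, n = 4 each). USP14 had 153, 150.3, 153 and 153 CPM in KG1A NEL, against 126, 135, 129 and 131 in KG1A DMSO, and rose by 0.22 ± 0.04 (edgeR adjusted p = 1.97e-04), and ADRM1 fell by 0.25 ± 0.04 (edgeR adjusted p = 2.51e-04). POMP (0.17 ± 0.07, edgeR adjusted p = 0.0773) and UCHL5 (0.03 ± 0.05, edgeR adjusted p = 0.672) were not called, although POMP was called higher with the library number as a block (edgeR adjusted p = 3.75e-04, and 3.00e-05 to 0.456 over all alternatives). SEM1 at -0.22 ± 0.09 (edgeR adjusted p = 0.0436) lost its call without KG1A NEL library 1 or 3 or KG1A DMSO library 3 or 4 (edgeR adjusted p = 0.0690 to 0.141, and 1.24e-04 to 0.708 over all alternatives).

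Of 9 tested genes for transcription factors of proteasome genes and their processing, 4 rose and 4 fell in U937, beside 34.6% and 34.7% of all genes, and 3 rose and 0 fell in KG1A, beside 23.6% each way. With the library number as a block, 5 rose and 2 fell in KG1A, beside 28.8% and 29.7% of all genes in that fit. Those that fell then were NFE2L2 and MAFK, at -0.19 (edgeR adjusted p = 0.00219, and 3.44e-04 to 0.577 over all alternatives). NFE2L1, the factor that raises proteasome genes when the proteasome is blocked, had 168, 157, 159 and 152 CPM in U937 NEL, against 145, 133, 145 and 144 in U937 DMSO, and 152, 150.3, 146 and 148 in KG1A NEL, against 135, 134, 135 and 133 in KG1A DMSO. It rose slightly in both lines, by 0.17 ± 0.04 in U937 (edgeR adjusted p = 0.00389) and 0.15 ± 0.03 in KG1A (edgeR adjusted p = 0.00299). NFE2L2, the regulator of the antioxidant response, fell in U937 by 0.32 ± 0.05 (edgeR adjusted p = 5.47e-05) and stood at -0.14 ± 0.06 in KG1A (edgeR adjusted p = 0.0535, 2.97e-04 with edgeR and the library number as a block, and 2.97e-04 to 0.400 over all alternatives). MAFF and MAFK, small MAF partners of these factors, moved apart in U937. MAFF had 15.9, 15.8, 14.4 and 14.5 CPM in U937 NEL, against 7.43, 5.32, 7.69 and 6.82 in U937 DMSO. MAFK had 11.9, 11.3, 11.1 and 13.0 in U937 NEL, against 35.0, 36.6, 30.8 and 31.1 in U937 DMSO. MAFG, another small MAF, was more abundant, at 102 ± 7.91 CPM in U937 NEL and 110.0 ± 7.26 in U937 DMSO (mean ± SD, n = 4 each), with overlapping groups. In U937, MAFF rose by 1.16 ± 0.11 (edgeR adjusted p = 3.96e-07) and MAFK fell by 1.49 ± 0.08 (edgeR adjusted p = 2.35e-09). In KG1A, MAFF rose by 0.32 ± 0.11 (edgeR adjusted p = 0.0326) and lost its call in 4 of the 8 fits that left out a library, those without KG1A NEL 1 or 2 or KG1A DMSO 1 or 4 (edgeR adjusted p = 0.0610 to 0.102, and 0.00134 to 0.102 over all alternatives). DDI2, the protease that activates the NFE2L1 protein, fell in U937 by 0.68 ± 0.06 (edgeR adjusted p = 1.18e-07). DDI2 was not called in KG1A (0.11 ± 0.07, edgeR adjusted p = 0.197). KEAP1, which marks NFE2L2 for degradation, rose in KG1A by 0.26 ± 0.05 (edgeR adjusted p = 2.72e-04). KEAP1 fell in U937, at 89.5 ± 5.86 CPM with NEL and 108 ± 4.59 with DMSO (mean ± SD, n = 4 each).

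Upstream of the proteasome, the unfoldase VCP and the factors that bring ubiquitinated proteins gave 8 lower and 1 higher of 13 in U937, beside 34.7% and 34.6% of all genes. In KG1A they gave 4 lower and 4 higher, beside 23.6% of all genes each way. With the library number as a block they gave 7 lower and 5 higher in KG1A, beside 29.7% and 28.8% of all genes in that fit. VCP had 235, 251, 238 and 242 CPM in U937 NEL, against 429, 425, 418 and 412 in U937 DMSO, and 185, 188, 189.9 and 207 in KG1A NEL, against 192, 196, 211 and 208 in KG1A DMSO. It fell by 0.80 ± 0.04 in U937 (edgeR adjusted p = 4.74e-10) and stood at -0.07 ± 0.04 in KG1A (edgeR adjusted p = 0.189, 0.0113 with edgeR and the library number as a block, 0.0982 with edgeR on summed libraries, and 0.0113 to 0.917 over all alternatives). UFD1, a cofactor of VCP, rose in both lines, by 0.30 ± 0.04 in U937 (edgeR adjusted p = 3.13e-05) and 0.89 ± 0.04 in KG1A (edgeR adjusted p = 2.01e-09), and RAD23B, a shuttle factor, fell by 0.29 ± 0.05 in KG1A (edgeR adjusted p = 1.59e-04). Of the 6 ubiquitin and E1 enzyme genes, 4 fell and 2 rose in U937, beside 34.7% and 34.6% of all genes. In KG1A, 4 fell and 0 rose, beside 23.6% each way, and 6 fell with the library number as a block, beside 29.7% in that fit. The share that rose in U937 was near that of all genes, while the shares that fell in both lines lay above those of all genes, in a list of 6. UBA1, the E1 enzyme that starts most ubiquitination, fell in both lines, by 0.40 ± 0.04 in U937 (edgeR adjusted p = 2.25e-07) and 0.23 ± 0.03 in KG1A (edgeR adjusted p = 9.65e-05). UBA6, another E1, had 96.7, 97.6, 98.5 and 102 CPM in U937 NEL, against 68.9, 73.1, 71.9 and 80.2 in U937 DMSO, and rose there by 0.43 ± 0.05 (edgeR adjusted p = 3.36e-06). UBA6 fell in KG1A, by 0.20 ± 0.04 (edgeR adjusted p = 6.15e-04).

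Because most members fell together in U937, their promoters were searched for 3 motifs on both strands, from 250 bases before to 50 after the start (RefSeq, GRCh38.p14). TGACNNNGC, an antioxidant response type element that NFE2L1 and NFE2L2 are known to bind, was in 13 of the 40 members matched (32.5%) and in 16.1% of 27305 genes. CCAAT was in 19 members (47.5%) and 39.7% of all, and GGAAGT, an ETS type motif, in 21 (52.5%) and 26.6% of all. The motifs were counted separately, so matches may overlap, and a match is a description, not a binding site.

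The median log2 fold change in U937 was -0.42 for members with TGACNNNGC and -0.42 for those without it. It was -0.55 with CCAAT and -0.34 without, and -0.41 with GGAAGT and -0.53 without. In KG1A all of these medians lay between -0.01 and 0.01. The 250 bases before the start are shown for the 3 genes that fell most in U937 and for PSMB10, which did not fall there, with matches to TGACNNNGC or CCAAT on either strand in capitals, 5′ to 3′ on the strand of the gene. They lie at chr2:231056617-231056866 (plus strand, PSMD1), chr17:42833147-42833396 (plus, PSME3), chr17:67366578-67366827 (minus, PSMD12) and chr16:67936851-67937100 (minus, PSMB10).
PSMD1: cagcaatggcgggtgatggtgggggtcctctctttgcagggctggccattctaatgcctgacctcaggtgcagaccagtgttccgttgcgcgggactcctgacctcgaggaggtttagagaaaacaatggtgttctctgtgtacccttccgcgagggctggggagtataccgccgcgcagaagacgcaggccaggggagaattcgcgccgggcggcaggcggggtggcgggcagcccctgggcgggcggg
PSME3: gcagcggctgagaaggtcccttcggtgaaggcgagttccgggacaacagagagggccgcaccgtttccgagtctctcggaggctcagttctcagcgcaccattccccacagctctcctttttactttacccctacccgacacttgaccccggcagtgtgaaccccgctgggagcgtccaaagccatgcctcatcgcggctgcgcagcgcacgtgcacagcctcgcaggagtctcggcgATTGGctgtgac
PSMD12: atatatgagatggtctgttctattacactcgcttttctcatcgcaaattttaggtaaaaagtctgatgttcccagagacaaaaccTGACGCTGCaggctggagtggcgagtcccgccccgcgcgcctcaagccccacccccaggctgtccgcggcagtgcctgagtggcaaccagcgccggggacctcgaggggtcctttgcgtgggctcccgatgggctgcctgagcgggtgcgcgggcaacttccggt
PSMB10: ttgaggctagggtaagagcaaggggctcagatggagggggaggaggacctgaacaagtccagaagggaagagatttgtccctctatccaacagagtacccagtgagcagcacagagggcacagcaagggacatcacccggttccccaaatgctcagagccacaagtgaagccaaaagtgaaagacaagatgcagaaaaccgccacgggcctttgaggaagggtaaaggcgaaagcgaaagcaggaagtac

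The stretch of PSMD12 holds TGACNNNGC at positions -165 to -157, counted from the start, and that of PSME3 holds CCAAT on the opposite strand at -12 to -8. PSMD1 holds TGACNNNGC at 40 to 48 after its start, outside the bases shown, and PSMB10 holds neither motif in its window, although GGAAGT is at -8 to -3. No searched motif was in the windows of all 3 genes that fell most in U937.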

How the data were processed

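Polyadenylated RNA of 16 libraries, 4 for each line and treatment, was sequenced with a stranded protocol, per the labels' protocols. The submitters' processing notes name bcl2fastq 2.18.0.12, TopHat2, HTSeq 0.11.2 and hg19 (GRCh37), and neither the annotation nor the use of strand in counting. The authors deposited raw read counts per gene and RPKM of the same libraries. The deposited RPKM match the counts divided by exon length and library total (relative deviation at most 1.86e-07), so they are no separate evidence. A symbol was found for 32562 of 34618 gene IDs, and IDs without one held 0.878% of all counts.

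The test was edgeR 4.0.16 (quasi-likelihood, TMM factors, R 4.3.3) on genes that passed its low-count filter (minimum count 10, minimum total 15), with Benjamini-Hochberg adjustment over all genes tested. NEL was compared with DMSO over the 8 libraries of each line, the lines over their DMSO libraries, and the NEL effects by the interaction over all 16. A standard error is the size of the log2 fold change divided by the square root of the F statistic. The steps were tested on simulated data.

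The genes and lists were chosen with earlier results of these data known. By rule, values per library are given for PSMB5, PSMB6, PSMB7, PSMB10, PSMD4, PSMD14, the activators, PSMF1, the PSMG genes, the 3 called members with the largest change each way in each NEL contrast and in the interaction, and the 2 each way between the lines. The rule also names NFE2L1, NFE2L2, POMP, ADRM1, SEM1, USP14, UCHL5, VCP and the called gene of smallest p each way in each pathway list and NEL contrast. PSMC4, DDI2 and other genes named beside these were chosen after their values were seen.

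Alternatives were DESeq2 size factors, upper quartile factors, no filter, at least 1 CPM in 4 libraries, DESeq2 (1.42.0), limma-trend (3.58.1) on log2(RPKM + 0.5) and log2(RPKM + 0.1), the library number as a block, odd or even number as a covariate, either set alone, libraries 1 and 2, and 3 and 4, summed, and each library left out. Deviations of NEL and DMSO libraries from their group means correlated by 0.289 to 0.369 in KG1A and 0.316 to 0.364 in U937 for the same number, by 0.285 to 0.330 and 0.299 to 0.401 for other numbers that were both odd or both even, and by -0.366 to -0.280 and -0.396 to -0.308 for odd with even numbers (11845 genes). Of the 4 NEL libraries of a line, 3 in KG1A and 2 in U937 correlated best with their own number. The block was kept because every same-numbered pair correlated positively, but the data show the odd and even sets and do not tell pairing by number apart from them. RefSeq promoters (GRCh38.p14) matched 40 of the 46 members, in 49 windows, and in 45 of these the bases after the start were found in GENCODE 29 transcripts. Some marker genes are not reported here.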

Additional observations from a re-analysis of the deposited data

Results flagged for a closer look

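The NEL effect was tested for a difference between U937 and KG1A (interaction term, edgeR, over 16 libraries), and 37 of 44 proteasome genes were called. Of these, 34 were lower and 3 higher in U937, beside 26.3% and 21.1% of all genes tested. All values are differences of log2 fold changes, U937 minus KG1A. In the 19S base and lid they were -1.56 for PSMD1, -0.95 for PSMD11, -0.93 for PSMD12, -0.83 for PSMC4, -0.75 for PSMC5, -0.75 for PSMC3, -0.66 for PSMD3, -0.66 for PSMD2, -0.63 for PSMD7 and -0.62 for PSMC2. Smaller ones in the 19S particle were -0.48 for PSMD14, -0.47 for PSMD13, -0.33 for PSMD4 and -0.18 for PSMD6, and PSMC1 stood at 0.39. The calls of PSMD6, PSMD10, PSMB7, PSMA2 and PSMD9 were lost with DESeq2 size factors, and those of PSMA2, PSMC1 and PSMD9 in several other alternatives. In the 20S rings they were -0.74 for PSMA3, -0.69 for PSMB2, -0.64 for PSMA5, -0.60 for PSMB5, -0.46 for PSMB1, -0.45 for PSMA7, -0.44 for PSMA1, -0.42 for PSMA4, -0.37 for PSMB4, -0.29 for PSMA2 and -0.22 for PSMB7. Among the assembly chaperones they were -0.71 for PSMG1, -0.60 for PSMG3, -0.45 for PSMG4, -0.40 for PSMD9, -0.32 for PSMD5 and -0.20 for PSMD10. Among the alternative subunit, the activators and the inhibitor they were 0.59 for PSMB10, 0.24 for PSME1, -1.32 for PSME3, -0.35 for PSME4 and -0.23 for PSMF1.

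In 7 of the 176 groups of 4 libraries that were looked at (44 genes in 4 groups), 1 library lay far from the other 3. How often chance gives such a library was not tested. If the rate were about 1 group in 20, which is assumed here, 7 would be no more than chance brings. The groups share the same 16 libraries, so this is a rough guide only. In KG1A NEL these were library 4 for PSMA3 at 116 CPM and for PSMD10 at 30.6 CPM, library 2 for PSMD4 at 45.3 CPM, all highest, and library 3 for PSMF1 at 135 CPM, lowest. In KG1A DMSO library 4 was highest for PSMA3 at 117 CPM. In U937 NEL library 3 was highest for PSMA5 at 49.7 CPM, and in U937 DMSO library 1 was highest for PSMA5 at 80.4 CPM.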

How the results depend on the processing

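No called value of a named gene changed sign under any alternative run. The members' median in U937 was -0.38 with upper quartile factors and -0.32 and -0.34 with limma-trend at pseudocounts of 0.5 and 0.1, where 3 members each were called higher (PSME3IP1, PSMB10 and PSME2). The KG1A median was 0.055 and 0.061 with limma-trend. The interaction median was -0.36 with DESeq2 size factors, -0.36 with the DESeq2 test, -0.37 with upper quartile factors, -0.38 and -0.40 with limma-trend and -0.38 in the odd-numbered libraries alone, and 1 member was called higher in the even-numbered libraries alone. Between the lines the median was 0.55 with upper quartile factors and 0.56 with limma-trend at 0.1. The cause of these shifts was not tested. In the fits that left out a library each, 36 to 38 members fell in U937, and 5 to 7 rose and 8 to 9 fell in KG1A. With the replicate block, PSMB1, PSMB5, PSMC5, PSMD8 and PSMD13 were called in KG1A as well (the fit on summed libraries called these but PSMB1, with an edgeR adjusted p of 0.0860 there and 0.0428 to 0.857 over all its alternatives), and it changed no other call of a member beyond those given with the results. Each sum joined an odd-numbered and an even-numbered library, so the fit on sums also took out the spread between these sets. It is thus no separate check of the calls made with the block. In U937 the widest standard errors were those of PSMA6, PSMC1 and PSMD9, which have low counts. The planned comparison of protein sequences was not run.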
